A study of Mus musculus with 18 samples.

Results

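The genes for the cyclin-dependent kinase inhibitors Cdkn2a, Cdkn2b, Cdkn1a and Cdkn1b were followed through the reproductive life of the mouse mammary epithelium by the DNA methylation of the CpGs around them. The CpGs were taken from 3 windows on mouse build mm9: chr4:88915000-88962000, which holds the neighbouring genes Cdkn2a and Cdkn2b, chr17:29220000-29245000 with Cdkn1a, and chr6:134860000-134885000 with Cdkn1b. Within these windows 384 CpGs were listed, 182 for Cdkn2a and Cdkn2b, 85 for Cdkn1a and 117 for Cdkn1b. At least 5 reads in at least 1 library covered 382 of them, out of 1476285 such CpGs in the series. At least 5 reads in all 18 libraries covered 169 of them (84, 36 and 49 by window), out of 711980 in the series, and the main tests between libraries rest on these 169. Promoter levels instead use, in each library, the CpGs with at least 5 reads in that library.

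The libraries came from glands of C57BL/6 female mice that were digested to purify mammary epithelial stem cells, luminal progenitor cells and mature luminal cells, as the labels call them. The cells came from retired breeders, from mice at day 10, day 16 or day 19 of pregnancy, and from virgin mice at week 3 or week 9, with 1 library for each cell type at each of the 6 stages. Each cell type therefore had 1 retired, 3 pregnant and 2 virgin libraries, and the stages within pregnancy and within the virgin state served as replicates of those states. The labels give no age for the pregnant mice and retired breeders and do not say whether the libraries came from separate animals, so that p-values measure the spread between these libraries. Reduced representation bisulfite sequencing cuts DNA with MspI at CCGG and reads the CpGs near the cuts; bisulfite turns unmethylated cytosines into uracil, and the methylation level of a CpG is the percentage of its reads that were methylated.

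Each library held between 17513287 and 117922522 reads at CpGs, and the median number of reads at the 169 CpGs lay between 13 and 109 per library. The retired libraries were at the shallow end, with medians of 13 to 20 reads, against 20 to 109 in the other 15. All 3 retired files also had the 6-column layout that 4 of the other 15 files shared. The purity of the cells could hardly be checked. Among the promoters of cell type markers, only Oxtr of 7 basal genes and Gata3 and Kit of 10 luminal genes could be placed, and none of the leukocyte, endothelial, fibroblast or adipocyte genes. Their mean levels over the 18 libraries were near zero, at 0.565% for Oxtr, 0.155% for Gata3 and 0.154% for Kit.

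These genes encode the brakes of the cell cycle. The INK4 proteins made from Cdkn2a (p16Ink4a) and Cdkn2b (p15Ink4b) bind the kinases Cdk4 and Cdk6, and the CIP/KIP proteins made from Cdkn1a (p21Cip1) and Cdkn1b (p27Kip1) bind complexes of cyclins with Cdk2; Cdkn2a also encodes, from a start further upstream, p19Arf, which holds back Mdm2 and so stabilises p53. Methylation of a CpG-rich promoter goes with its silencing, and the INK4 genes are known for being silenced in this way in tumours, while in normal tissue such promoters are generally unmethylated; p27Kip1 is known to limit proliferation of mammary epithelium that answers to hormones.

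The files carry positions but no gene names, so the starts were placed by matching the spacing of the CpGs in RefSeq promoter sequences (build GRCm38.p6) to the listed mm9 positions. The upstream start of Cdkn2a, that of p19Arf, was placed with 21 matching CpGs (6 at the next best place on the chromosome), Cdkn2b with 9 (5), Cdkn1b with 15 (5) and the second of the RefSeq starts of Cdkn1a with 6 (5, the placed one lying in the window of the gene). The other Cdkn2a start, that of p16Ink4a, and the first Cdkn1a start had too few matching CpGs to be placed, so no level is given for them. The 250 bases before each placed start are shown because they carry the CpGs whose levels the following results describe. They read 5′ to 3′ on the strand of the gene, and capitals mark the CpGs with at least 5 reads in any library.

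Cdkn2a, chr4:88940524-88940773, minus strand: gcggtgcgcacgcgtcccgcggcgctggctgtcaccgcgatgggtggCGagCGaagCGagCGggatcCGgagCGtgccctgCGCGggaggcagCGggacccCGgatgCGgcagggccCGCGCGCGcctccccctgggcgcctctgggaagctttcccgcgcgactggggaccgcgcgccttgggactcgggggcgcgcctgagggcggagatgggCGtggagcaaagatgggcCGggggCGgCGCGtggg
Cdkn2b, chr4:88956942-88957191, minus strand: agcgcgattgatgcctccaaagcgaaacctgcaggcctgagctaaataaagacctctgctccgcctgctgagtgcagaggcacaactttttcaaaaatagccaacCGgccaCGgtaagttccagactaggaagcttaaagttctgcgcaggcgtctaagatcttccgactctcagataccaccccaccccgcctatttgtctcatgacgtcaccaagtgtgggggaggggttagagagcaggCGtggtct
Cdkn1a, chr17:29230464-29230713, plus strand: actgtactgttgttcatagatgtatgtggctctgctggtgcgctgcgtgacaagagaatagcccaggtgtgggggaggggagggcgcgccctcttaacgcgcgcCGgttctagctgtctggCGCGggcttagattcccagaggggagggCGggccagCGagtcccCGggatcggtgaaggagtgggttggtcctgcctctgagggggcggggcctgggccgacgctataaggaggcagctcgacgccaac
Cdkn1b, chr6:134870169-134870418, plus strand: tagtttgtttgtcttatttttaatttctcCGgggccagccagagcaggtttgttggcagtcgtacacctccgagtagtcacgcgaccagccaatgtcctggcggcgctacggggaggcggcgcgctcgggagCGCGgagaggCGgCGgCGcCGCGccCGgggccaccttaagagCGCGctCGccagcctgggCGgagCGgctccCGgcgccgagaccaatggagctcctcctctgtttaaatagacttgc

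The sequences differ in how much of them the assay could see. Cdkn2a was the richest, with 78.4% G and C, 40 CpGs of which 20 are in capitals, and 3 CCGG sites. Cdkn1b had 64.4% G and C, 28 CpGs of which 15 were read, and 3 CCGG sites, and Cdkn1a had 64.8%, 19 CpGs of which 6 were read, and 2 sites. Cdkn2b was the poorest, with 53.6% G and C, 12 CpGs of which 3 were read, and 1 site. A GC box was searched as GGGCGG on both strands and overlapped no CCGG here. It occurred 2 times in Cdkn2a, 2 times in Cdkn1a, 1 time in Cdkn1b and not in Cdkn2b. In the 250 bases before the start, CCGG occurs in 47.1% and GGGCGG in 32.7% of all 32851 RefSeq promoters.

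All 4 placed promoters had levels below 5% in every stem, progenitor and mature library that read them, from week 3 virgins to retired breeders. Each library was read at its own CpGs with at least 5 reads, so the CpGs differ between libraries. Those read in all 18 libraries were 9 of 21 for Cdkn2a, 0 of 9 for Cdkn2b, 3 of 6 for Cdkn1a and 6 of 15 for Cdkn1b. Over the 300 bases from 250 before to 50 after the start, the Cdkn2a promoter had 32 methylated reads of 11843 over the 18 libraries, which is 0.27% (95% Wilson interval 0.192 to 0.381%). Its libraries lay between 0%, in 7 of them, and 1.65% in day 16 pregnant mature cells (8 of 484 reads). The Cdkn1b promoter, of the gene for p27Kip1, had 17 methylated reads of 11638, or 0.146%, and no methylated read in 12 libraries. Its highest level was 0.557% (6 of 1077 reads) in week 9 virgin progenitor cells. The depth behind these zeros differed: 0 of 957 reads in day 19 pregnant mature cells allows a level of up to 0.313%, while 0 of 82 reads in day 16 pregnant progenitor cells allows up to 3.66%. The limit given for a zero is 3 divided by the reads, a rougher measure than the Wilson interval. Intervals and limits here cover counting error only, since reads from PCR are not independent molecules.

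The Cdkn1a promoter had 29 methylated reads of 4596, or 0.631%, in 14 of the 18 libraries, with a highest level of 4.48% (3 of 67 reads) in day 16 pregnant mature cells. The Cdkn2b promoter had 6 methylated reads of 3727, or 0.161%, and 13 of the 17 libraries that read it had none. Its highest level of 4.76% in retired progenitor cells was 1 read of 21. Day 16 pregnant stem cells had no CpG with at least 5 reads there, and retired mature cells gave 6 reads at such CpGs. In day 16 pregnant progenitor cells 0 of 16 reads allows up to 18.8%, and the Wilson interval in retired progenitor cells reaches 22.7%. For Cdkn2b a level well above zero was therefore not detectable at this depth in those libraries. By mean level over the libraries the order was Cdkn1a at 0.836%, Cdkn2b at 0.386%, Cdkn2a at 0.253% and Cdkn1b at 0.088%. The place of Cdkn2b rests on the single methylated read in retired progenitor cells: without that library, left out after seeing the data, its mean was 0.113%, below that of Cdkn2a, as it also was in pooled reads. The lowest library of each gene was at 0%, so the ranges of all neighbours in that order overlap.

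The other genes of the same cell-cycle circuit, a list of 36 with cyclins, their kinases, further inhibitors, the retinoblastoma and E2F families, the p53 regulators and Polycomb genes, was examined in the same way. Of these, 10 had no entry in the promoter table, 7 could not be placed and 19 were placed. All 19 placed promoters averaged below 5% over the libraries, with a median of 0.136%. The highest were Cdkn2d, which encodes the INK4 protein p19Ink4d, at 1.61%, the TGF-beta mediator Smad3 at 0.475%, the INK4 target Cdk6 at 0.407%, the phosphatase gene Cdkn3 at 0.375% and the p53 antagonist Mdm2 at 0.23%. The Cdkn2d value rests partly on 1 library, retired stem cells, where 16.7% was read from few reads. The Mdm2 value likewise rests largely on week 9 virgin stem cells at 2.58%, every other library lying at 0.342% or below. By mean absolute difference over the libraries, the placed promoters closest to Cdkn1b were those of the Polycomb gene Suz12 (0.057 percentage points), the mitotic kinase gene Cdk1 (0.069) and the cyclin gene Ccne1 (0.088). Closest to Cdkn2a were Rbl2 (0.189), a relative of the retinoblastoma gene, the INK4 gene Cdkn2c (0.22) and Rbl1 (0.23). The closest to Cdkn1a were Cdk6 (0.631), Cdkn3 (0.665) and Rbl2 (0.724), and to Cdkn2b, over 17 libraries, the p53 regulator Mdm4 (0.386), Cdk1 (0.389) and the transcription factor gene E2f3 (0.403). These distances are a description of levels close to zero and say nothing about regulation.

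**Figure D1:**
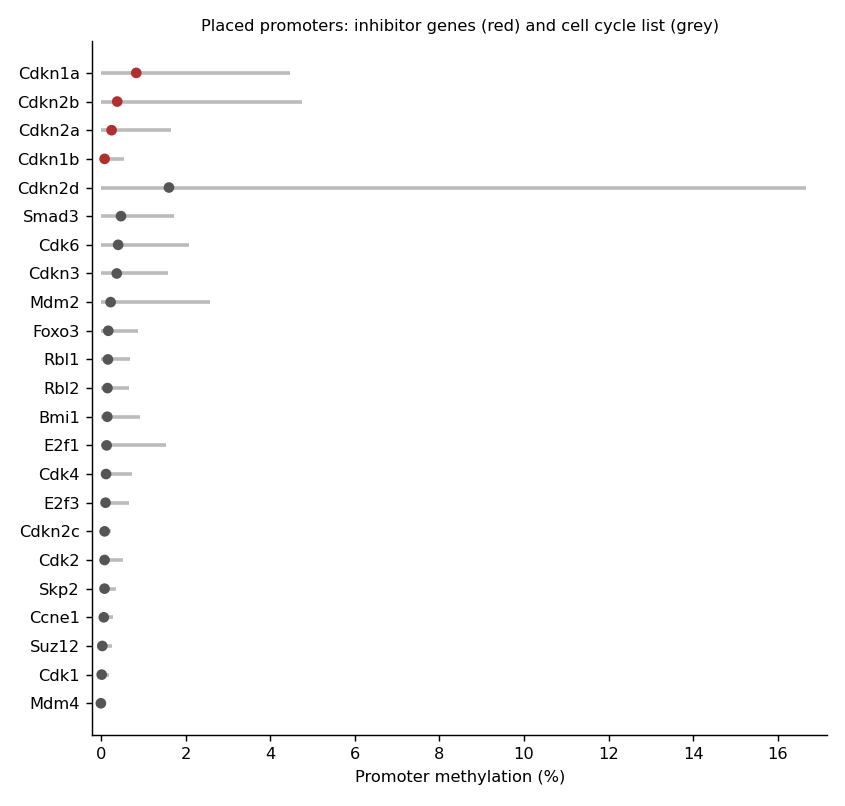
Methylation level (percent, horizontal axis) of the placed 300-base promoters of the 4 inhibitor genes (red) and of 19 genes of the pathway list (grey); points are means over the libraries and bars run from the lowest to the highest library. All means lie below 5%, and the longest bar, that of Cdkn2d, reaches 16.7%.

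Most of the sequence read in the windows was unmethylated. Of the 169 CpGs, 141 (83.4%) averaged below 5% over the 18 libraries, against 35.4% of the CpGs of the series, and 51 (30.2%) had no methylated read in any library, against 13.2%. Levels of 80% and above were found at 8 CpGs (4.73%), against 43.7% of the series, and levels between 20 and 80% at 9 (5.33%), against 16.7%. The windows differed: all 49 CpGs of Cdkn1b were below 5%, as were 67 of 84 at Cdkn2a and Cdkn2b and 25 of 36 at Cdkn1a. All 8 CpGs at 80% or above belonged to the Cdkn1a window.

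**Figure D2:**
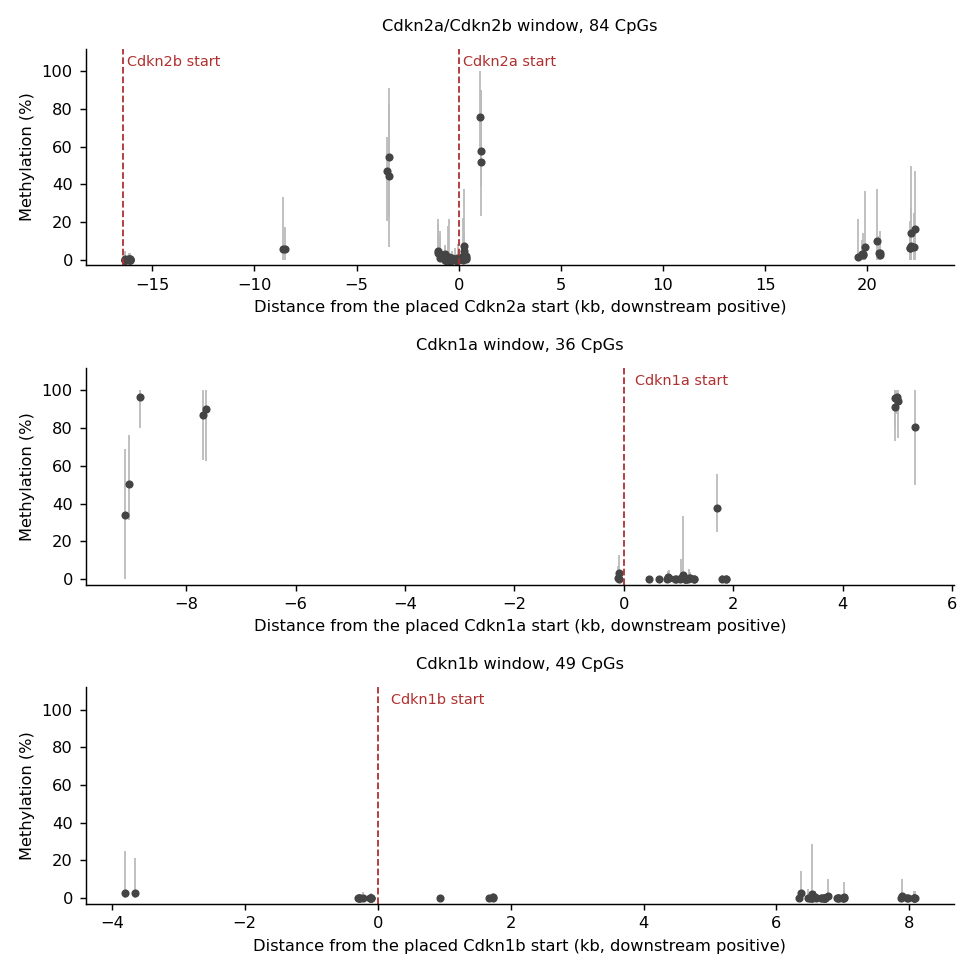
Methylation level (percent, vertical axis) of each of the 169 CpGs against its distance from the placed start in kb, with downstream positive; points are means over 18 libraries, grey lines run from the lowest to the highest library, and dashed lines mark the placed starts. The CpGs around the starts lie near 0%, CpGs at middle levels flank the placed Cdkn2a start on either side and lie upstream of Cdkn1a, and the Cdkn1b window stays near 0% throughout.

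The p19Arf start of Cdkn2a sat in an unmethylated island with methylated shoulders. From 1029 bases upstream to 379 bases downstream of the p19Arf start, 48 CpGs averaged 1.02%, with libraries between 0.376% and 2.01%. Inside this stretch the placed promoter of Gm12610, a long non-coding RNA gene on the other strand, had 61 methylated reads of 26608. The least unmethylated CpG of the island, 271 bases downstream of the start, averaged 7.51%. Beyond the edges the level was in the middle of the scale: 3 CpGs at 1019 to 1095 bases downstream averaged 62.1 ± 12.4% (SD over 18 libraries), and 3 CpGs at 3419 to 3501 bases upstream averaged 49.1 ± 13.7%. Between the island and the downstream group lies a gap without a CpG read in all libraries.

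Further downstream of the p19Arf start the levels were mostly low but not zero. The RefSeq gene is 20147 bases long, so CpGs up to about that distance lie inside Cdkn2a. The p16Ink4a start also lies downstream of the p19Arf start and was not placed. Whether any of these CpGs belong to its promoter is not known here. Of 15 CpGs between 19549 and 22310 bases downstream, 6 at the far end averaged 9.78 ± 4.41%, from 2.86% in retired mature cells to 18.8% in retired stem cells. A group of 7 CpGs at 12241 to 12767 bases downstream was read in part of the libraries only, at most 15; its mean levels ran from 0% to 34.8%, and that of 34.8% came from a CpG with at least 5 reads in 7 libraries, 26 of its 80 reads being methylated. Cdkn2b, whose start lies 16418 bases upstream of the p19Arf start, had a mean of 0.125% at 13 CpGs between 81 and 344 bases downstream of its own start, with no library above 0.693%. Further downstream of the Cdkn2b start the CpGs were partly methylated. The RefSeq gene of Cdkn2b is 4744 bases long, so CpGs beyond about that distance lie past its end. At 3863 to 3909 bases, 6 CpGs with at least 5 reads in 14 or 15 libraries had mean levels from 12.6 to 26.2%, and at 7804 to 7892 bases 2 CpGs read in all libraries averaged 5.83 ± 4.83%. The highest levels at these 2 were 16.7% in retired mature and 15.9% in retired stem cells.

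The Cdkn1a window had a sharper contrast between start and surroundings. Near the start, 3 CpGs at 85 to 101 bases upstream averaged 1.28%, and 19 CpGs at 457 to 1286 bases downstream averaged 0.215%. On either side the DNA was methylated, with 5 CpGs at 4952 to 5315 bases downstream averaging 92.6 ± 4.01% and 2 CpGs at 7633 to 7689 bases upstream averaging 88.8 ± 5.46%. At 8842 to 9120 bases upstream the 3 CpGs differed among themselves, with means of 33.8%, 50.6% and 96.5%. One CpG stood apart inside the unmethylated part: at 1704 bases downstream the mean was 37.5 ± 8.87%, with every library between 25 and 55.6%, while the 3 other CpGs of its stretch brought the mean of the 4 down to 5.41%. Each library had at least 9 reads at that CpG, which was singled out after its values were seen.

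Cdkn1b had no methylated shoulder among the CpGs read in all libraries. The 10 CpGs at 93 to 289 bases upstream averaged 0.093%, the 25 CpGs at 6341 to 7023 bases downstream averaged 0.263% and the 8 CpGs at 7877 to 8078 bases downstream averaged 0.266%. The RefSeq gene is 5125 bases long, so the last of these stretches lie past its end. The highest level in the window belonged to 2 CpGs at 3644 to 3802 bases upstream, with a mean of 2.61% and 22.7% in day 19 pregnant progenitor cells. Every other library was at 3.51% or below there, and the reads per library ran from 22 to 206.

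Whether pregnancy, cell type, age or breeding history moved these levels was tested on tiles of 1000 bases with at least 3 CpGs read in all libraries, which gave 17 tiles in the windows (7 at Cdkn2a and Cdkn2b, 5 at Cdkn1a, 5 at Cdkn1b) with 158 of the 169 CpGs, among 77064 tiles in all. A quasi-binomial regression was fitted to every tile of the series, and a tile was called where the Benjamini-Hochberg adjusted p was under 0.05 and the groups differed by at least 10 percentage points. By mean level 12 of the 17 tiles (70.6%) were below 5%, against 25.7% of all tested tiles, so that few tiles could fall by 10 points. No tile of the 4 genes was called in any of the 12 comparisons made.

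In stem cells, pregnant against virgin, 0 of the 17 tiles were called by the quasi-binomial test, against 0.313% of all tiles. At an unadjusted p under 0.05 there were 3 of 17, against 14.3% of all tiles, and limma called 0 there and 0% of all tiles. Pregnant libraries lay above the virgin ones without overlap in 3 of the 17 tiles, against 8.06% of all tiles, and below them in 2, against 18%. The median difference over the 17 tiles was -0.005 percentage points, against -0.221 over all tiles. In progenitor cells, 0 of the 17 tiles were called, against 0% of all tiles, and 1 had an unadjusted p under 0.05, against 3.76%; limma called 0. The pregnant libraries lay above the virgin ones without overlap in 2 of 17 tiles, against 7.89% of all tiles, and below them in 3, against 8.24%. In mature cells the quasi-binomial test likewise called 0 of 17 tiles, against 0% of all tiles, with 1 at an unadjusted p under 0.05, against 5.08%, and limma called 0. Pregnant lay above virgin without overlap in 1 of 17 tiles (6.57% of all tiles) and below in 2 (8.72%).

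The largest pregnancy difference among the tiles was found 8842 to 9120 bases upstream of Cdkn1a, the gene for p21Cip1, in stem cells (chr17:29221001-29222000, 3 CpGs, 37 to 247 reads per library). The level was 68.0%, 67.3% and 68.8% in stem cells of day 10, day 16 and day 19 of pregnancy, against 41.1% and 50.5% in stem cells of week 3 and week 9 virgins. The pregnant libraries lay above the virgin ones, with means of 68.0 ± 0.721% (SD, n = 3) and 45.8 ± 6.64% (SD, n = 2). The small SD of the pregnant libraries is less than their counting error, the Wilson intervals running from 58.3 to 76.3%, 53.8 to 78.5% and 54.7 to 80.1% on 100, 52 and 48 reads. By CpG, where each level rests on only part of the reads of the tile, the same libraries spread more. They had 46.7%, 68.8% and 33.3% at 9120 bases, against 22.2% and 20.6% in virgin stem cells. At the middle CpG they had 67.1%, 50% and 66.7%, against 36.8% and 45.8%. The pregnant levels were above the virgin ones at either CpG, while the third, at 8842 bases, was at 88.2% or more in all 5 stem libraries. The tile difference of 22.2 points had an adjusted p of 0.0953 in the quasi-binomial fit (unadjusted 0.00173) and missed the threshold. It was 17.6 points without the week 3 virgin stem library. A tile level pools the reads of its CpGs, so the split of reads among CpGs of unlike level also enters it. The part of that split in the difference was not tested. A change of methylation within cells and a change in the mix of cells purified cannot be told apart in such libraries.

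The pregnant levels lay below the virgin ones in progenitor cells and overlapped with them in mature cells. In progenitor cells the level was 50.4%, 59.5% and 49.0% in pregnant mice, against 60.3% and 59.7% in virgins, and in mature cells 53.1%, 66.7% and 51.5%, against 58.3% and 49.2%. Stem cells had the highest pregnant mean and the lowest virgin mean of the 3 cell types. The pregnancy difference in stem cells exceeded that in progenitor cells by 29.3 points (quasi-binomial adjusted p = 0.233) and that in mature cells by 18.9 points (adjusted p = 0.286), neither past the threshold. Retired breeders had 48.8% in stem, 69.8% in progenitor and 47.5% in mature cells, from 40 to 43 reads each.

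For these differences of differences the quasi-binomial test called 0 of the 17 tiles and 0% of all tiles, both for stem less progenitor cells and for stem less mature cells. At an unadjusted p under 0.05 there were 1 of 17 (10.5% of all tiles) and 4 of 17 (11.4%), and limma called 0 in either.

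Retired breeders stood apart at the downstream shoulder of Cdkn2a (chr4:88939001-88940000, 3 CpGs at 1019 to 1095 bases downstream of the p19Arf start). Their stem, progenitor and mature libraries had 82.1% (67 reads), 84.2% (57 reads) and 82.4% (51 reads). Pregnant mice at day 10, day 16 and day 19 had 78.9%, 61.2% and 60.9% in stem cells, 56.2%, 55.6% and 74.6% in progenitor cells and 53.3%, 51.8% and 51.9% in mature cells. Virgins at week 3 and week 9 had 52.5% and 57.1% in stem cells, 45.0% and 53.6% in progenitor cells and 58.2% and 57.5% in mature cells. All 3 retired libraries lay above all 15 others, in 1 of the 17 tiles and 0.714% of all tiles; in 0 of the 17 and 0.349% of all tiles they lay below all others. By CpG, the retired libraries lay above all others at 1095 bases, with 75.0%, 90% and 78.9% against at most 70.4%. They overlapped with the others at 1089 and 1019 bases. A single CpG holds only part of the reads given for the tile. Set against the 6 virgin libraries alone, the retired ones were higher without overlap in 2 of the 17 tiles (3.05% of all tiles) and lower in 1 (3.63%).

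The retired mean over the cell types was 82.9%, against 54.0% in virgins, a difference of 28.9 points with an unadjusted p of 0.000375 and an adjusted p of 0.885 in the quasi-binomial fit. In limma, fitted to the log2 ratio of methylated reads to the rest, the adjusted p was 0.04999, just past the threshold. Against the pregnant mean of 60.5% the retired mean of 82.9% was 22.4 points higher (quasi-binomial adjusted p = 0.946). Retired against virgin, 0 of 17 tiles were called, against 0% of all tiles, and 1 had an unadjusted p under 0.05, against 5.29%; limma called this 1 tile, against 0.0493% of all tiles. Retired against pregnant, the quasi-binomial test called 0 of 17 and 0% of all tiles, 1 of 17 had an unadjusted p under 0.05 (4.83% of all tiles), and limma called 0 of 17, against 0.0843%.

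The retired libraries also had the fewest reads at these CpGs apart from the day 16 pregnant stem library (49 reads), and they shared the 6-column layout with 4 pregnant libraries. Those 4 had 55.6% (day 16 progenitor), 60.9% (day 19 stem), 74.6% (day 19 progenitor) and 51.9% (day 19 mature), all below the retired libraries. The part of depth in the result was not tested. Since each cell type had 1 retired library, and the labels give no age for the breeders, breeding history, age and animal cannot be told apart. For the same reason, the spread at a tile in the tests of retired breeders came from the virgin and pregnant libraries only.

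At the same shoulder pregnant stem cells averaged 67.0 ± 10.3% (SD, n = 3), against 54.8 ± 3.26% (SD, n = 2) in virgin stem cells. This difference of 12.2 points (quasi-binomial adjusted p = 0.303) rested largely on day 10, without which it was 6.28 points. On the other side of the island, the 3 CpGs at 3419 to 3501 bases upstream of Cdkn2a fell across a tile border and were not tested. Their levels were 52.4% in retired stem, 21.7% in retired progenitor and 81.7% in retired mature cells, which hold both the lowest and the highest level of all 18 libraries. Pregnant libraries averaged 51.4 ± 8.87% in stem, 49.7 ± 14.4% in progenitor and 46.2 ± 8.71% in mature cells (SD, n = 3 each), against 41.3 ± 15.9%, 51.7 ± 14.4% and 50.2 ± 2.72% in virgins (SD, n = 2 each). The pregnant and virgin ranges overlapped in all 3 cell types, and the shared retired level downstream of the island had no counterpart upstream of it.

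**Figure D3:**
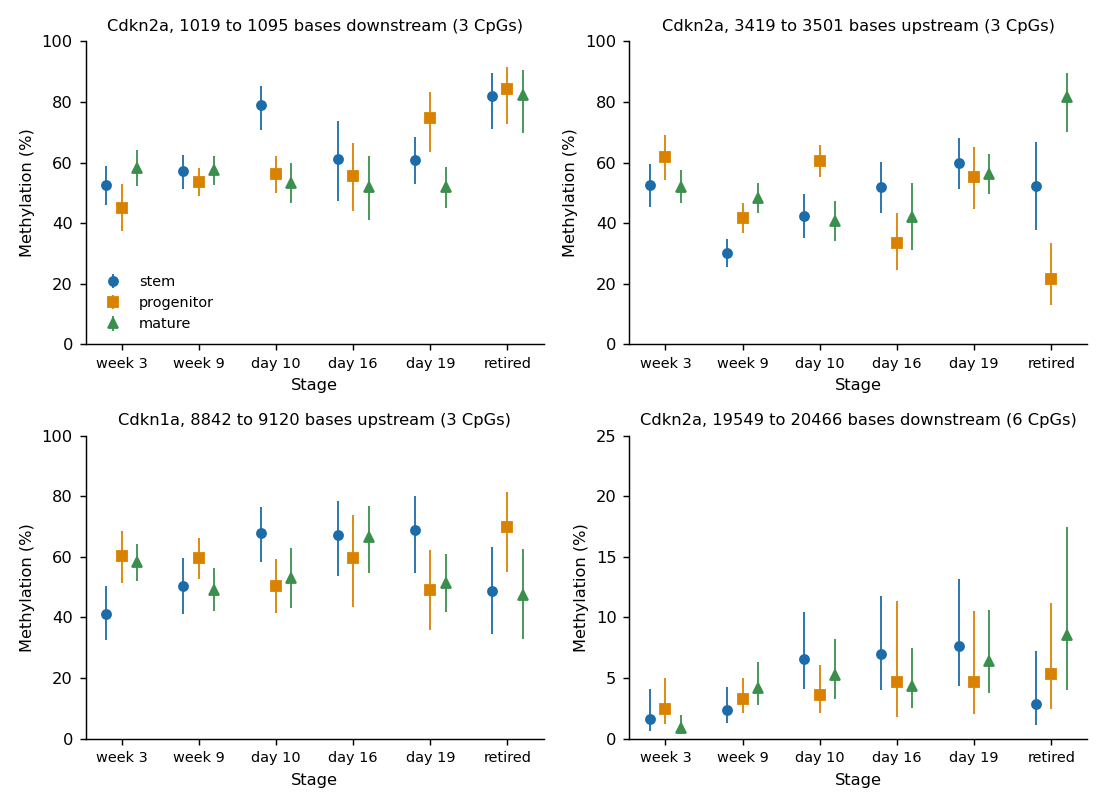
Methylation level (percent, vertical axis, to 25% in the last panel and to 100% in the others) in each of the 18 libraries at 4 places named in the text, by stage; circles are stem, squares progenitor and triangles mature cells, and bars are 95% Wilson intervals of the reads. Retired libraries lie at 82.1 to 84.2% downstream of the Cdkn2a start, and pregnant stem cells at 67.3 to 68.8% upstream of Cdkn1a.

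A smaller difference was seen 19549 to 20466 bases downstream of the Cdkn2a start (chr4:88920001-88921000, 6 CpGs, 70 to 679 reads per library). Pregnant stem cells had 6.61%, 6.98% and 7.64% at day 10, day 16 and day 19, against 1.63% and 2.35% in virgin stem cells of week 3 and week 9. Progenitor cells had 3.62%, 4.65% and 4.72% in pregnancy, against 2.46% and 3.25% in virgins, and mature cells 5.22%, 4.35% and 6.37%, against 0.884% and 4.21%. The pregnant libraries lay above the virgin ones without overlap in all 3 cell types, in 1 of the 17 tiles and 0.0298% of all tiles, and below them in 0 of the 17 and 0.131% of all tiles. In stem cells this rests on 1 of the 6 CpGs, at 20466 bases. Pregnant stem cells had 22.6%, 13.6% and 37.5% there, against 3.23% and 9.84% in virgin stem cells. The CpG had a median of 37.5 reads per library and at least 11. Pregnant progenitor cells had 4.08%, 0% and 9.09% at that CpG, against 0% and 1.11% in virgins, and these groups overlapped. At the other 5 CpGs pregnant stem cells had 1.11%, 4.69% and 3.91%, against 1.4% and 1.1% in virgins, and pregnant progenitor cells 3.55%, 5.63% and 4.21%, against 2.75% and 3.62%, so that the groups overlapped. Mature cells did not overlap there, with 3.94%, 4.91% and 6.49% in pregnancy, against 0.88% and 2.79% in virgins. This tile was singled out after its values were seen.

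Averaged over cell types its level was 5.57% in pregnant and 2.46% in virgin mice, a difference of 3.11 points with an unadjusted p of 0.00342 and an adjusted p of 0.731 in the quasi-binomial fit, below the 10 points asked of a call. In stem cells alone the difference was 5.09 points (quasi-binomial adjusted p = 0.167), most of it from the CpG at 20466 bases, since the other 5 CpGs gave 3.24% in pregnant and 1.25% in virgin stem cells. The difference in mature cells was 2.77 points (adjusted p = 0.95), which fell to 1.11 points without the week 3 virgin library. Retired stem, progenitor and mature cells had 2.9%, 5.36% and 8.57%. Pregnant against virgin over the cell types, a comparison added after seeing the data, the test called 0 of 17 and 0% of all tiles, 2 of 17 had an unadjusted p under 0.05 (6.53% of all tiles), and limma called 0.

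Between cell types, no tile of the 4 genes was called either. Stem against progenitor cells across the 6 stages, the quasi-binomial test called 0 of 17 tiles and 0% of all tiles, with 0 of 17 at an unadjusted p under 0.05 (9.32% of all tiles). Stem against mature cells it called 0 of 17 and 0%, with 2 of 17 at an unadjusted p under 0.05 (11% of all tiles), and progenitor against mature cells 0 of 17 and 0%, with 3 of 17 (5.99%). Week 9 against week 3 virgins gave 0 of 17 and 0%, with 2 of 17 (6.29%). In each of these 4 comparisons limma called 0 tiles, and no difference between means in the 17 tiles reached 10 points.

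The mean over all CpGs of a window, with equal weight per CpG, was compared between the same groups. At Cdkn2a and Cdkn2b it was 6.01 ± 0.494% in pregnant and 4.91 ± 0.128% in virgin stem cells (SD, n = 3 and n = 2), a difference of 1.1 points (exact permutation p = 0.2, adjusted 0.9 over 18 window tests). It was 5.81 ± 1.04% in pregnant and 5.0 ± 0.24% in virgin progenitor cells, and 5.41 ± 0.482% in pregnant and 5.34 ± 0.12% in virgin mature cells. Retired libraries had 6.82% in stem, 6.44% in progenitor and 7.56% in mature cells.

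At Cdkn1a the window mean was 24.6 ± 0.718% in pregnant and 23.5 ± 0.639% in virgin stem cells, 22.9 ± 0.725% and 24.2 ± 0.321% in pregnant and virgin progenitor cells, and 23.7 ± 1.8% and 24.7 ± 1.39% in pregnant and virgin mature cells. At Cdkn1b all these means lay at or below 0.484%. With 3 against 2 libraries the exact permutation test cannot give a p below 0.1, and the lowest found for pregnancy was 0.2. Between cell types, paired by stage, an exact sign-flip test over 6 pairs can reach a p of 0.031; the lowest p was 0.156, for Cdkn1b in stem cells at 0.27% against 0.417% in mature cells, and all 18 adjusted p-values were 0.9 or above.

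**Figure D4:**
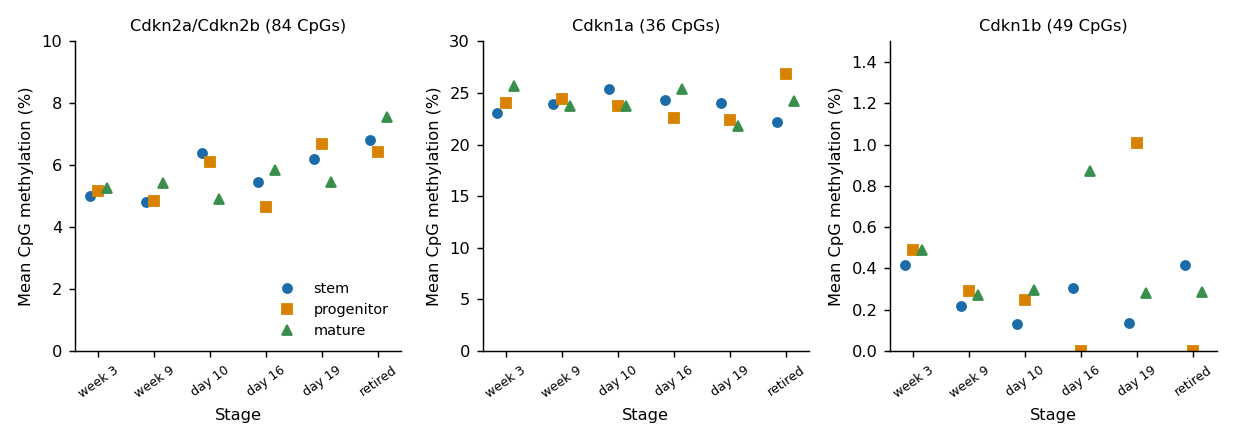
Mean CpG methylation (percent, vertical axis, a separate scale for each window) of the 3 windows in each library by stage; circles are stem, squares progenitor and triangles mature cells. At Cdkn2a and Cdkn2b the 3 retired libraries lie at 6.44 to 7.56%, and the Cdkn1b means lie between 0 and 1.01%.

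The placed promoter tiles of the 19 pathway genes were all tested and averaged between 0.093% and 1.43%. In none of the 12 comparisons was a pathway promoter called higher or lower by the quasi-binomial test, and the smallest adjusted p of any of them was 0.0807, for the Polycomb gene Bmi1. The largest difference between groups at any of these tiles was 2.58 points.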

How the data were processed

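Genomic DNA cut with MspI was bisulfite-treated and sequenced as multiplexed reduced representation libraries, per the labels' protocols. The deposited files give, per CpG on mm9 (per the submitters' processing notes), the methylated reads over all reads, a pair of whole numbers; 11 files had 4 columns and 7 had 6. How reads were aligned, called and deduplicated is not given in the sources used here, and incomplete bisulfite conversion would add a little to levels near zero.

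From these deposited read numbers, those of CpGs reaching 5 reads in every library were summed per 1000-base tile with at least 3 CpGs. Each of 77064 tiles was fitted by quasi-binomial logistic regression over all 18 libraries, with dispersion moderated across tiles and held at 1 or above, and adjusted by Benjamini-Hochberg. Pregnancy and retirement used 9 groups of cell type by state; cell types and virgin stages used cell type plus stage. Pairing by stage, taken from the labels, was part of the cell type comparisons. Window means were tested by exact permutation or sign flips. Promoters were placed where at least 6 listed CpGs all matched and no other place on the chromosome did as well; a lead of 2 CpGs, or a place in the gene's own window, was required after seeing the data, which left 19 of 21 pathway genes. Tiles with a placed promoter or a mean of 10 to 90% were to be given in full; further tiles and CpGs named are said to be chosen by their values. Positions count from 1.

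The members, gene lists and tests were chosen with earlier results of these data known. The fit was tested on simulated data. Alternatives were 10 reads, 500-base tiles, any CpG with 5 reads in a library, CpGs above the 99th percentile of coverage left out, a 20-point threshold, no replicate block, pooled reads, limma and leaving out each library. Python 3.11.15 (numpy 2.4.6, scipy 1.17.1, pandas 2.3.3) and R 4.3.3 with limma 3.58.1 were used.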

Additional observations from a re-analysis of the deposited data

Results flagged for a closer look

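In mature cells, the level 1019 to 1095 bases downstream of the Cdkn2a start was 82.4% in the retired library, further from the other 5 mature libraries than a 95% Dixon limit allows. The mean of the Cdkn2a and Cdkn2b window was likewise far from the others in the retired mature library, at 7.56%, and that of the Cdkn1b window in the day 16 pregnant mature library, at 0.874%. These were 3 of 15 sets of 6 libraries checked, and chance flags about 1 in 20 of separate sets. The Cdkn2a and Cdkn2b window holds the CpGs at 1019 to 1095 bases, so the retired mature flags are not separate. The share of flags can therefore not be set against that rate.

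Several pregnancy differences were unequal between cell types. At 8842 to 9120 bases upstream of Cdkn1a the difference in stem cells exceeded that in progenitor cells by 29.3 points (quasi-binomial adjusted p = 0.233), every pregnant stem library lying above the virgin mean and every pregnant progenitor library below it. In the Cdkn1a window mean the same gap was 2.36 points and was not tested. At 1019 to 1095 bases downstream of the Cdkn2a start the difference in stem cells exceeded that in mature cells by 17.7 points (quasi-binomial adjusted p = 0.351). The difference in progenitor cells exceeded that in mature cells by 18.3 points, which was not tested.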

How the results depend on the processing

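Over 41 results and 537 alternative settings, 489 values were unchanged. Among these, 132 tile differences and 170 window mean differences kept their direction and their side of the threshold. The rest were counts of called tiles, which have no direction. For window means between cell types, leaving out either library of a stage drops the same pair. Such values, and reversals among them, are counted for each library of the pair. The count of called tiles stayed at 0 of 17 under 187 of 188 settings. The exception was limma for retired against virgin, which called 1 of 17 (38 of all tiles), the tile downstream of the Cdkn2a start, whose 28.9 points had an adjusted p of 0.04999. Leaving out 1 library gave 25.9 to 31.1 points there and 17.6 to 26.9 points upstream of Cdkn1a in stem cells, and 0 called tiles throughout. Without the replicate block (the pairing by stage) 0 tiles were called. Window differences between cell types, such as 0.133 points for stem less progenitor cells at Cdkn2a and Cdkn2b, cannot change with the block, since the pairs are complete, and none passed without it.

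The 46 reversals were all window means, and the cause was not tested. Not all of their main differences were near zero: pregnant less virgin at Cdkn1a was -1.316 points in progenitor and -1.057 points in mature cells. Pregnant less virgin, the difference became -0.024 points at Cdkn2a and Cdkn2b in mature cells with pooled reads. With any CpG of 5 reads it became 0.222 (progenitor) and 1.37 (mature) at Cdkn1a and -0.377 (progenitor) and -0.331 (mature) at Cdkn1b. In Cdkn1b progenitor cells it was -0.072 with 10 reads and -0.162 with pooled reads. Stem less mature cells gave -0.3 at Cdkn2a and Cdkn2b and 0.121 at Cdkn1b with any CpG, and 0.268 at Cdkn1a with 10 reads. Stem less progenitor cells at Cdkn1b gave 0.019 with 10 reads, 0.257 with any CpG and 0.066 with pooled reads. Progenitor less mature cells gave 0.186 with 10 reads and 0.201 with pooled reads at Cdkn2a and Cdkn2b, and 0.319 with 10 reads at Cdkn1a. Without 1 library, pregnancy ranged from -0.151 to 0.328 (Cdkn2a and Cdkn2b, mature), -0.092 to 0.212 (Cdkn1b, mature) and -0.267 to 0.237 (Cdkn1b, progenitor). Without 1 stage, stem less mature ranged from -0.254 to 0.19 (Cdkn2a and Cdkn2b) and -0.772 to 0.194 (Cdkn1a), and stem less progenitor from -0.569 to 0.717 (Cdkn1a) and -0.165 to 0.092 (Cdkn1b). Progenitor less mature ranged from -0.357 to 0.123 (Cdkn2a and Cdkn2b), -0.647 to 0.456 (Cdkn1a) and -0.238 to 0.081 (Cdkn1b). Depth limits the shallow libraries most. By the limit of 3 divided by the reads, promoter zeros allow up to 50% at Cdkn2b (0 of 6 reads, retired mature cells). The Wilson interval of that library reaches 39.0%. At the other genes the zeros allow up to 13% at Cdkn1a, 3.66% at Cdkn1b and 1.55% at Cdkn2a.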
